A study of Mus musculus with 8 samples.

Results

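In sorted cells of the mouse embryo 9 genes used as markers of macrophages were followed, Csf1r, Cx3cr1, Mrc1, C1qa, C1qb, C1qc, Cd68, Fcgr1 and Timd4, chosen by name among the 24015 genes of the count table. Of the 9 genes, 8 passed the low count filter, as did 13908 genes in all, and Timd4 did not. RNA was measured at E11.5 in 8 libraries of 100 sorted cells each, from the aorta-gonad-mesonephros region with the vitelline and umbilical arteries (AGM+VU). Hematopoietic clusters, the budding cells of the arterial wall in which blood stem cells arise, were sorted as Ter119- VE-Cadherin+ Kit+ cells, and endothelium as Ter119- VE-Cadherin+ Kit- CD41- CD45- cells. Each sort was done on wild type and on Sl/Sl embryos. The latter are homozygous for Steel, a germline deletion that takes in Kitl, the gene of the ligand of the receptor Kit, so that every cell of the embryo lacks it. There were 2 libraries in each of the 4 groups, from embryos pooled by genotype on a C57BL/6 background over 2 sorting experiments, and which library came from which experiment was not given. The p-values below therefore measure the spread between these samples, which may be partly technical. The cluster gate did not use CD45, the leukocyte antigen, whereas the endothelium gate excluded CD45+ cells, so cell type and gate cannot be told apart in any comparison of clusters with endothelium. The cluster gate required Kit, a receptor that mature fetal macrophages are held not to carry, so such a gate would leave them out, and which cells carried the RNA of these genes was not tested. In such bulk libraries fewer cells of a type and less RNA per cell cannot be told apart either.

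Embryonic macrophages derive largely from yolk sac progenitors and take up dying cells and debris in the tissues they settle. Their survival depends on the receptor Csf1r, bound by the ligands Csf1 and Il34, and their receptor Cx3cr1 senses the membrane-bound chemokine Cx3cl1. The scavenging machinery includes Mrc1, a mannose receptor shared with sinusoidal and lymphatic endothelium, Timd4, a receptor for phosphatidylserine on dying cells that marks some resident macrophages, Fcgr1, the high-affinity receptor for IgG, Cd68, a glycoprotein of the lysosome, and the chains A, B and C of C1q (C1qa, C1qb and C1qc), which together recognise the targets of the classical complement pathway. The libraries were made to compare blood-forming and endothelial cells with and without Kitl, and they give the level of each of these genes in each sort.

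Counts on genes summed to between 8933236 and 13428214 per library, with 12844 to 14309 genes detected. Levels are given as CPM, counts scaled to the library's TMM-adjusted total, and, between genes, as RPKM, counts scaled to the plain total and the exon length. A library with 0 counts of a gene allows up to 3 counts, and amplified reads are not separate molecules, so this floor and the counting intervals cover counting error only. In the endothelium the wild type libraries had 1250 and 923 counts of Kitl and the Sl/Sl libraries 6 and 2, but in clusters it had 110 counts in wild type replicate 1, 0 in wild type replicate 2, and 1 and 3 in the Sl/Sl replicates, so the genotype label of the library labelled wild type clusters replicate 2 could not be checked in this way. Of the sort markers, Ptprc, which encodes CD45, and Kit moved with the gates. Ptprc was at 1294 to 3908 counts in the cluster libraries and 6 to 16 in the endothelium, and Kit at 2937 to 4392 against 538 to 1065 counts. Itga2b, which encodes CD41, was at 109 to 271 counts in clusters and 44 to 109 in the endothelium, with no gap between the sorts. Cdh5, which encodes VE-Cadherin, varied among the cluster libraries from 154 counts in wild type replicate 2 to 2531 in wild type replicate 1. Although both gates required VE-Cadherin, Cdh5 was higher in every endothelium library, at 4480 to 8240 counts.

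In mm9 the 9 genes are all annotated as protein coding, and none has an exon that overlaps another gene's in the table. The C1q genes are neighbours on chromosome 4, in the order C1qb (chr4:136436061-136442092), C1qc (chr4:136445717-136448829) and C1qa (chr4:136451831-136454759), all within 18699 bases and with 3624 and 3001 bases between them. The other positions are Cd68 (chr11:69477715-69479672), Timd4 (chr11:46624301-46657835), Fcgr1 (chr3:96086832-96097892), Mrc1 (chr2:14151041-14253650) and Cx3cr1 (chr9:119957801-119977414), while Csf1r is placed below. The 250 bases upstream of the start are shown for neighbouring genes whose levels varied widely among the cluster libraries, C1qb and C1qc, and for genes whose levels varied less, Cd68 and Fcgr1. The sequences are from RefSeq (GRCm38.p6), each matched mm9 exactly once, on the minus strand, at chr4:136442116-136442365, chr4:136448830-136449079, chr11:69479673-69479922 and chr3:96097893-96098142. They are printed 5′ to 3′, and capitals mark GAGGAA, part of the site of the macrophage factor PU.1, and TGCTGA, part of the recognition element of the Maf factors, on either strand.
C1qb: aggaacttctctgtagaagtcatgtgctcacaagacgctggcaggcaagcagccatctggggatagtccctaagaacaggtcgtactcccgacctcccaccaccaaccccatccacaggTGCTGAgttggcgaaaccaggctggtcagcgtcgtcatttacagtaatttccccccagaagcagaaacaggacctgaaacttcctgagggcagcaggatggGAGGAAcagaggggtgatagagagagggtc
C1qc: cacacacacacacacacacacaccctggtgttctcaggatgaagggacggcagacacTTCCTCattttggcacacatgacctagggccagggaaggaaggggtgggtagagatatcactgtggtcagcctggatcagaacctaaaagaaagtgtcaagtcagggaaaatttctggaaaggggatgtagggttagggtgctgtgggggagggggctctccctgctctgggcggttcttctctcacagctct
Cd68: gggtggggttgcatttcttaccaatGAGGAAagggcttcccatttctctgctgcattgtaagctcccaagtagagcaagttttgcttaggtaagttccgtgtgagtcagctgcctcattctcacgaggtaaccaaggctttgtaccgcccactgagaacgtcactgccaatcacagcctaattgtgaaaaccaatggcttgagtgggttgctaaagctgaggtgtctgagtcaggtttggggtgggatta
Fcgr1: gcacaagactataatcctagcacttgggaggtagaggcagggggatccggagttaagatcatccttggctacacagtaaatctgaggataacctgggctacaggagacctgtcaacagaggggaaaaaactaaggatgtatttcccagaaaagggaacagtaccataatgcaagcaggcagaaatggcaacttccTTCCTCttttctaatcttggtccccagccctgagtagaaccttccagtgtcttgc

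Of the 7 genes with a promoter sequence, GAGGAA or its complement TTCCTC was found in 5 (Mrc1, Fcgr1, C1qb, C1qc and Cd68), against 23.3% of 32851 promoters of the same length. TGCTGA or its complement TCAGCA was found in 2 (C1qb and Timd4), against 16.1%. CACGTG, the E-box of the lysosomal regulators TFEB and TFE3, was found in 0 of the 7, against 6.02%. The nearest GAGGAA match began 30 bases upstream of the start of C1qb, 55 bases upstream of that of Fcgr1, 193 bases upstream of that of C1qc and 225 bases upstream of that of Cd68. The C1qb and C1qc sequences shared GAGGAA on opposite strands, and only C1qb of the 4 printed held TGCTGA. These matches describe letters in a window and not bound sites.

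Macrophage genes were found in all 4 cluster libraries, and in the endothelium all but Cd68 and Mrc1 were at 0 to 6 counts. Beside the 16.6% of all tested genes that differed between clusters and endothelium at an adjusted p under 0.1 (8.12% higher in clusters), 6 of the 8 tested macrophage genes were called, all of them higher in clusters (edgeR quasi-likelihood test with Benjamini-Hochberg adjustment over all tested genes). These were Csf1r, Cd68, Fcgr1, C1qb, Cx3cr1 and C1qc. The same 6 did not overlap between the cluster and the endothelium libraries in CPM, as did 19.7% of all tested genes, 9.57% higher and 10.1% lower in clusters. An unadjusted p under 0.05 was reached by 7 of the 8, C1qa being the seventh, and by 26.6% of all tested genes. Most of these genes passed the low count filter only through the cluster libraries, so the count over the tested genes cannot serve as evidence in itself. Timd4, with 1 count in wild type clusters replicate 1, 2 counts in wild type endothelium replicate 2 and 0 in the other libraries, was under the floor in each of them.

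**Figure D1:**
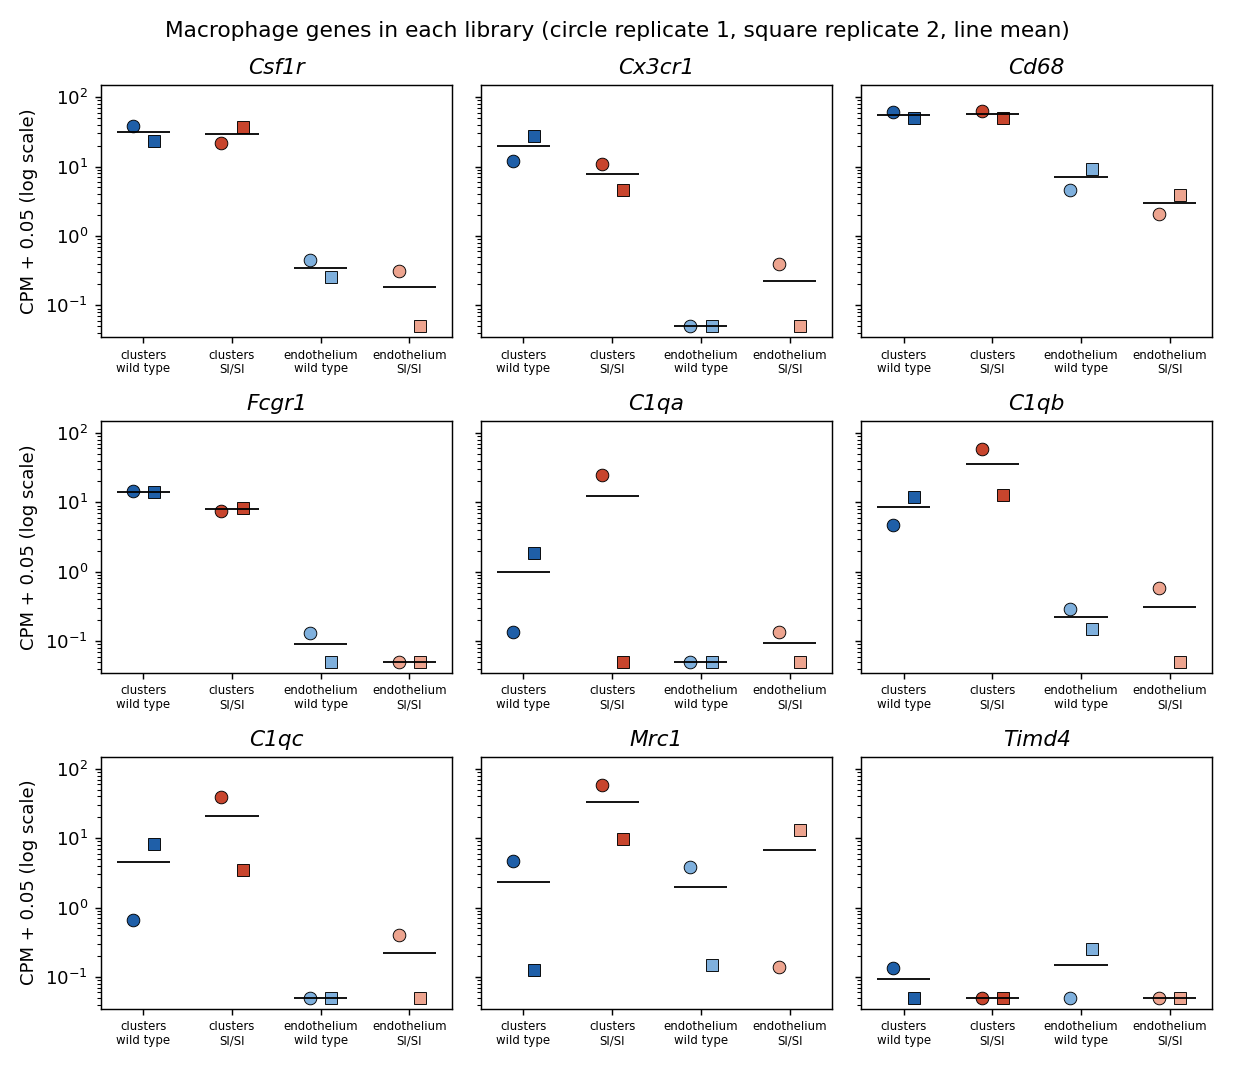
Each panel plots 1 macrophage gene by library, with CPM + 0.05 on a log axis, circles for replicate 1, squares for replicate 2 and lines at the mean of the 2 libraries of a group. Csf1r, Cd68 and Fcgr1 sit within a narrow band in the 4 cluster libraries and far lower in the endothelium, C1qa, C1qb, C1qc and Mrc1 are highest in Sl/Sl clusters replicate 1, and Timd4 stays at the bottom.

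Csf1r (chr18:61265226-61290793 in mm9) had 448 and 300 counts in the wild type and 263 and 529 in the Sl/Sl clusters, and 5, 2, 3 and 0 in the wild type and Sl/Sl endothelium. Every cluster library was far above every endothelium library, with 1540 against 10 counts in all. Scaled by the totals, this was a ratio of 127.9, with an exact 95% counting interval of 69.4 to 267 (adjusted p = 0.00215 in edgeR's quasi-likelihood test). In CPM the level was 31.0 ± 10.8 (SD, n = 2) for the wild type clusters and 29.3 ± 10.9 (SD, n = 2) for the Sl/Sl clusters, and the wild type and Sl/Sl values interleaved. The log2 difference between the genotypes was -0.08 with a standard error of 0.98.

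Cx3cr1 had 137 and 359 counts in the wild type and 132 and 65 in the Sl/Sl clusters, against 0 and 0 in the wild type and 4 and 0 in the Sl/Sl endothelium. The clusters together had 693 counts against 4, a scaled ratio of 143.9 with a counting interval of 56.0 to 530 (edgeR adjusted p = 0.0154). Within clusters the levels were 11.8 and 28.0 CPM in wild type and 10.8 and 4.55 CPM in Sl/Sl. The Sl/Sl libraries were therefore below the wild type libraries without overlap, but wild type replicate 1 and Sl/Sl replicate 1 differed by less than the replicates of either genotype. The log2 difference was -1.37 with a standard error of 1.55, and it did not pass the test (edgeR adjusted p = 1).

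Cd68 was the most even of the genes, with 702, 638, 760 and 725 counts in wild type clusters replicates 1 and 2 and Sl/Sl clusters replicates 1 and 2. It was also the macrophage gene most clearly present in endothelium, with 58 and 92 counts in the wild type libraries and 23 and 32 in those of Sl/Sl. Clusters were higher than endothelium by 3.63 on the log2 scale with a standard error of 0.49 (edgeR adjusted p = 0.00224), and by a pooled ratio of 11.4 (counting interval 9.93 to 13.3), a far smaller ratio than those of Csf1r or Fcgr1. The wild type clusters were at 55.1 ± 7.70 CPM (SD, n = 2) and the Sl/Sl clusters at 56.6 ± 8.28 CPM (SD, n = 2), which differed by 0.04 on the log2 scale with a standard error of 0.61. Cd68 is a lysosomal gene that cells other than macrophages also express.

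Fcgr1 had 169 and 178 counts in the wild type and 92 and 118 in the Sl/Sl clusters, and 1 count in the whole of the endothelium, in wild type replicate 1. The scaled ratio of 557 against 1 count was 463, with a counting interval of 82.7 to 18307 (edgeR adjusted p = 0.0111). Its CPM replicated closely within each genotype, at 14.2 ± 0.51 (SD, n = 2) for wild type and 7.90 ± 0.49 (SD, n = 2) for Sl/Sl, and the genotypes did not overlap. The log2 difference of -0.85 had a standard error of 1.49 in the fit, whose spread is estimated over the 4 groups and moderated across genes, and it did not pass the test (edgeR adjusted p = 1). With 2 against 2 libraries the smallest p an exact permutation test can give is 0.333.

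The C1q genes were present in clusters at very unequal levels. C1qb had 55 and 155 counts in the wild type and 707 and 184 in the Sl/Sl clusters, against 3, 1, 6 and 0 in the endothelium. For C1qc the wild type clusters gave 7 and 106 counts, the Sl/Sl clusters 474 and 49, and the endothelium 0, 0, 4 and 0. For C1qa the wild type clusters gave 1 and 23 counts, the Sl/Sl clusters 300 and 0, and the endothelium 0, 0, 1 and 0. Sl/Sl clusters replicate 1 was the highest library for each of them, and it was the only library in which C1qa exceeded 23 counts. The pooled ratio of clusters to endothelium was 91.5 for C1qb (counting interval 49.5 to 191, edgeR adjusted p = 0.0125) and 132 for C1qc (51.3 to 486, edgeR adjusted p = 0.0385). C1qa, with 324 against 1 count, gave a ratio of 269 (48.0 to 10662) but was not called (edgeR adjusted p = 0.125). The ratios pool the libraries and so rest largely on Sl/Sl clusters replicate 1. Without that library C1qc was no longer called between clusters and endothelium (edgeR adjusted p = 0.207), and without Sl/Sl clusters replicate 2, in which C1qa had 0 counts, C1qa was called (edgeR adjusted p = 0.0697).

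Per exon length, the order of the genes in clusters therefore depended on the library. Cd68 led in wild type replicate 1 at 51.2 RPKM, in wild type replicate 2 at 39.9 RPKM and in Sl/Sl replicate 2 at 42.4 RPKM. In Sl/Sl replicate 1 C1qb, at 55.6 RPKM, stood above Cd68 at 49.8 RPKM, followed by C1qc at 37.5, C1qa at 23.1 and Mrc1 at 11.0 RPKM. Below Cd68 came Csf1r at 10.8 RPKM in wild type replicate 1, C1qb at 11.6 RPKM in wild type replicate 2 and C1qb at 12.9 RPKM in Sl/Sl replicate 2. Only Cd68 kept a clear distance from its neighbours in those 3 libraries, and C1qb, Csf1r, Fcgr1 and Cx3cr1 changed places between replicates of 1 genotype. The highest cluster library exceeded the lowest by 1.26 times for Cd68, 1.79 times for Csf1r and 1.93 times for Fcgr1 in CPM. The same measure was 6.15 for Cx3cr1, 12.2 for C1qb and 64.5 for C1qc, and it is not given for C1qa and Mrc1, whose lowest library was at or under the floor.

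**Figure D2:**
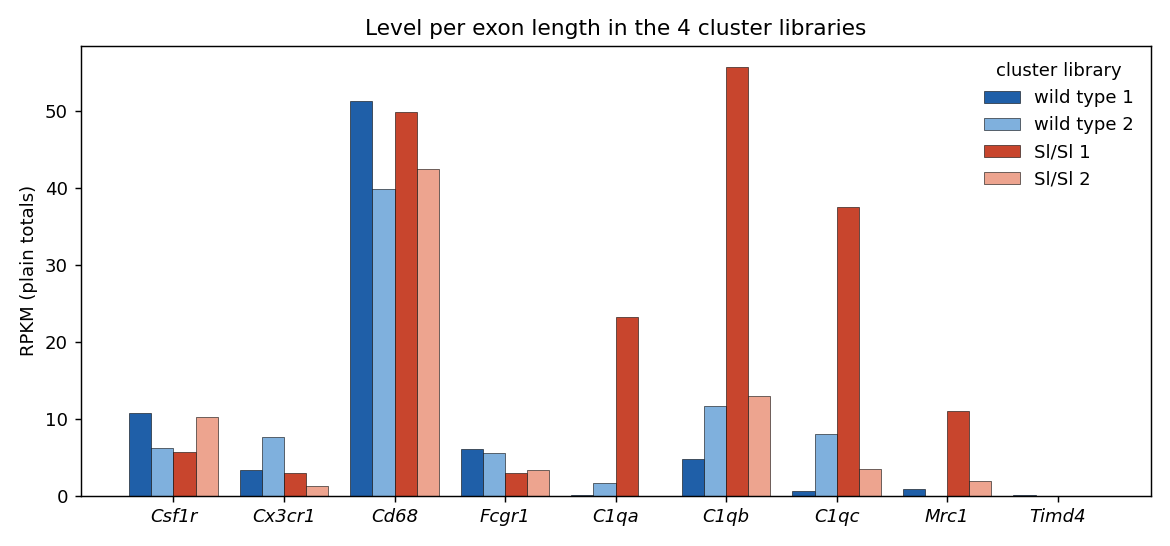
Bars show the RPKM of each macrophage gene in the 4 cluster libraries, wild type in blue and Sl/Sl in red. Cd68 stands at 39.9 to 51.2 RPKM in every library, whereas C1qb, C1qc and C1qa reach 55.6, 37.5 and 23.1 RPKM in Sl/Sl replicate 1 and stay at or below 12.9 RPKM in the others.

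The chains of C1q did not keep a fixed ratio to each other or to Csf1r. C1qb exceeded C1qc in RPKM by 7.81 times in wild type replicate 1, 1.45 times in wild type replicate 2, 1.48 times in Sl/Sl replicate 1 and 3.73 times in Sl/Sl replicate 2. The ratio of C1qb to Csf1r ran from 0.45 in wild type replicate 1 to 9.82 in Sl/Sl replicate 1, with 1.89 and 1.27 in the remaining libraries. That of Cd68 to Csf1r moved less, from 4.17 to 8.79. The C1q genes took 4.01% of the counts of the 9 genes in wild type clusters replicate 1, 16.1% in wild type replicate 2, 43.2% in Sl/Sl replicate 1 and 12.9% in Sl/Sl replicate 2. The summed level of the 9 genes was 136, 137 and 127 CPM in wild type replicates 1 and 2 and Sl/Sl replicate 2, and 282 CPM in Sl/Sl replicate 1. In the endothelium that sum was 3.68 to 17.0 CPM.

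Mrc1 was distributed differently from the other genes. It had 53 counts in wild type clusters replicate 1 and 1 in replicate 2, 701 and 139 in the Sl/Sl clusters, 47 and 1 in the wild type endothelium and 1 and 111 in the Sl/Sl endothelium. Clusters and endothelium overlapped, and the replicates lay far apart within each group. The log2 difference between clusters and endothelium was 1.30 with a standard error of 1.53 (edgeR adjusted p = 0.653), and it was -1.06 without wild type clusters replicate 1. Among the cluster libraries Mrc1 had the same highest and lowest library as Stab1, a scavenger receptor of sinusoidal endothelium and some macrophages, which was at 158 and 3 counts in the wild type clusters and at 963 and 52 in the Sl/Sl clusters. The 14 endothelial genes examined, among them Cdh5 and Pecam1, also summed highest in Sl/Sl clusters replicate 1, at 3421 CPM, and lowest in wild type clusters replicate 2, at 472 CPM, with 1440 and 870 CPM in the other two, against 7442 to 8260 CPM in the endothelium. In the endothelium, the libraries with Mrc1 above the floor, wild type replicate 1 and Sl/Sl replicate 2, were those with Dcn, a gene of fibroblasts, at 3759 and 1478 counts, against 2 and 16 in the libraries with 1 count of Mrc1. Stab1 was at 1477 to 3196 counts in all endothelium libraries, also in those with 1 count of Mrc1. In clusters the 10 mesenchymal genes, Dcn among them, summed to 434 CPM in Sl/Sl replicate 1, where Mrc1 was highest. That sum was 906 and 1198 CPM in wild type replicates 1 and 2 and 5427 CPM in Sl/Sl replicate 2. The part of other cells in the Mrc1 values was not tested.

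The comparison of Sl/Sl with wild type clusters asked whether the RNA of these 9 genes in the cluster sort differed without Kitl. Against a background of 0% of 13908 genes called, 0 of the 8 tested genes passed (edgeR quasi-likelihood test, adjusted p = 1 for each), and 0 of the 8 had an unadjusted p under 0.05, against 587 genes or 4.22% of all tested. DESeq2 also called 0 of the genes. The values of 5 genes were higher and those of 3 lower in Sl/Sl, with a median log2 difference of 1.06 over the 8 and 0.03 over all tested genes. Mrc1 and C1qb were wholly higher and Cx3cr1 and Fcgr1 wholly lower in the Sl/Sl clusters. That is 4 of 8 genes without overlap, in both directions, where 32.7% of all tested genes did not overlap, 16.4% higher and 16.2% lower in Sl/Sl. The receptors Csf1r, Cx3cr1 and Fcgr1, used here as macrophage markers, had log2 differences of -0.08, -1.37 and -0.85, and the lysosomal Cd68 had 0.04.

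The largest positive differences belonged to Mrc1 (3.85, standard error 2.38), C1qa (3.70, standard error 2.98), C1qc (2.25, standard error 1.98) and C1qb (2.07, standard error 1.38), and each was smaller or turned without Sl/Sl replicate 1. C1qb averaged 8.41 ± 5.18 CPM (SD, n = 2) over the wild type and 35.5 ± 32.0 CPM (SD, n = 2) over the Sl/Sl clusters. Without Sl/Sl replicate 1 its log2 difference was 0.61, that of Mrc1 was 2.06 and that of C1qc was -0.37. C1qa then had 0 counts in the remaining Sl/Sl library against 1 and 23 in wild type. Fcgr1, by contrast, stayed between -0.91 and -0.78 whichever library was left out, and Cx3cr1 between -2.13 and -0.63. Differences of the size seen in Cd68 and Csf1r took either sign with the library left out.

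**Figure D3:**
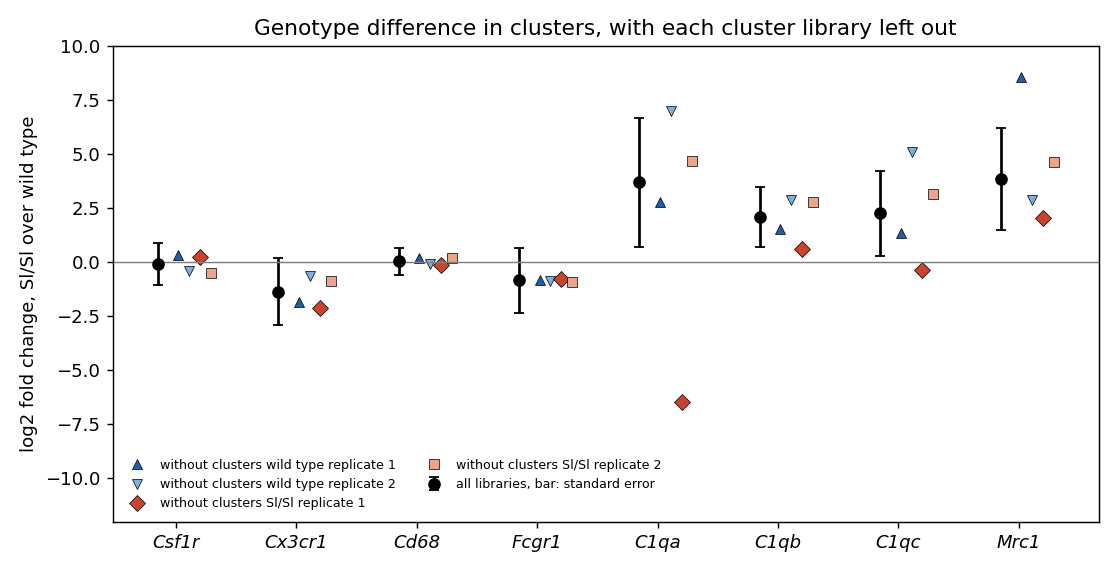
Points show the log2 fold change of Sl/Sl over wild type clusters for the 8 tested genes, with all libraries (black, bar of 1 standard error either way) and after leaving out 1 cluster library at a time. The value without Sl/Sl replicate 1 (red diamond) is the lowest of the set for C1qa, C1qb, C1qc and Mrc1, whereas Fcgr1 and Cd68 hardly move. The most extreme points of C1qa and Mrc1 set a group with at most 1 count against another, so their size depends on the prior count.

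In the endothelium 0 of the 8 tested genes differed between the genotypes, where 0% of all tested genes were called (edgeR adjusted p = 1 for each). None of the 8 had an unadjusted p under 0.05, as 580 genes or 4.17% of all tested did. Cd68 had the smallest p, with 6.95 ± 3.31 CPM (SD, n = 2) for the wild type and 2.91 ± 1.27 CPM (SD, n = 2) for the Sl/Sl endothelium, and a log2 difference of -1.26 with a standard error of 0.64. It was the only 1 of the 8 whose genotypes did not overlap, where 28.5% of all tested genes did not, 13.5% higher and 14.9% lower in Sl/Sl. For Mrc1 the log2 difference was 1.78 with a standard error of 2.20. Without Sl/Sl replicate 2 it was -4.31, with 1 count of Mrc1 in the remaining Sl/Sl library, so its size depends on the prior count. The other genes were at or near the floor in this tissue, and no fold is given for them. The test of whether the genotype difference itself differed between clusters and endothelium called 0 of the 8 genes against 0% of all tested genes, with the smallest p at 0.0709, for Cx3cr1 (edgeR adjusted p = 0.905). None of the 8 had an unadjusted p under 0.05, against 736 genes or 5.29% of all tested. For Cd68 this difference of differences was 1.29 on the log2 scale with a standard error of 0.88.

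Per exon length, Fcer1g, a signalling chain of IgG receptors, was far more abundant in clusters than Fcgr1. Fcer1g was at 616 ± 193 RPKM (SD, n = 2) for the wild type and 453 ± 110 RPKM (SD, n = 2) for the Sl/Sl clusters. Fcgr1 was at 5.77 ± 0.42 and 3.18 ± 0.30 RPKM (SD, n = 2), but Fcgr3, another IgG receptor, was at 270 ± 245 and 261 ± 47.0 RPKM (SD, n = 2). Of 11 tested ligands and partners, 4 were higher and 1 lower in clusters than in endothelium, against the same background of 8.12% and 8.48%. Fcer1g, which Fcgr1 needs at the cell surface, had 3390, 6217, 2954 and 4690 counts in the cluster libraries, in the order wild type replicates 1 and 2 and Sl/Sl replicates 1 and 2. Its log2 difference from endothelium was 5.84 with a standard error of 0.50 (edgeR adjusted p = 0.000253). Tyrobp, a signalling adaptor of myeloid and natural killer cells, had 1954, 4700, 2621 and 3171 counts in clusters and 13 to 33 in endothelium, a log2 difference of 6.95 with a standard error of 0.38. The kinase Syk was higher in clusters too, by a log2 difference of 3.06 with a standard error of 0.33, whereas Mfge8, a bridge between dying cells and phagocytes, was lower by a log2 difference of -1.53 with a standard error of 0.30. The ligands themselves lay in both sorts. Csf1 had 51 to 131 counts in clusters and 144, 53, 1 and 44 in the endothelium, Cx3cl1 had 16 to 78 counts in clusters and 39 to 230 in the endothelium, and Il34 had 0 counts in each of the 8 libraries. Of the 11 genes, 0 were called between the genotypes in either sort, where 0% of all tested genes were called.

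Other genes used to mark macrophages gave a mixed picture. Of 28 tested, 0 were called between the genotypes in either sort, where 0% of all tested genes were called. Some passed the low count filter only through the cluster libraries, so a count over them cannot serve as evidence in itself. At an adjusted p under 0.1, 14 were higher and 1 lower in clusters than in endothelium, against 8.12% and 8.48% of all tested genes. Those higher included Ctss, a protease of antigen-presenting cells, at a log2 difference of 7.84 (standard error 0.46), Fcgr3 at 6.81 (0.64) and Lyz2, the lysozyme of granulocytes and macrophages, at 5.90 (0.68). Emr1, which encodes the macrophage antigen F4/80, had 16 and 139 counts in the wild type and 180 and 43 in the Sl/Sl clusters and 0 to 2 in the endothelium, so that it was lowest in wild type replicate 1 and highest in Sl/Sl replicate 1, as were C1qb and C1qc. Several markers of resident tissue macrophages were at or near 0. Vsig4 and Siglec1 had 0 counts in each library, and Cd163 and Marco had 0 counts in each cluster library. Trem2 had 0 and 13 counts in the wild type and 12 and 0 in the Sl/Sl clusters, and Folr2 had 7 counts in Sl/Sl replicate 1 and 0 in the other clusters. Mertk, a receptor for the uptake of dying cells, had 0 and 81 counts in the wild type and 12 and 3 in the Sl/Sl clusters.

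**Figure D4:**
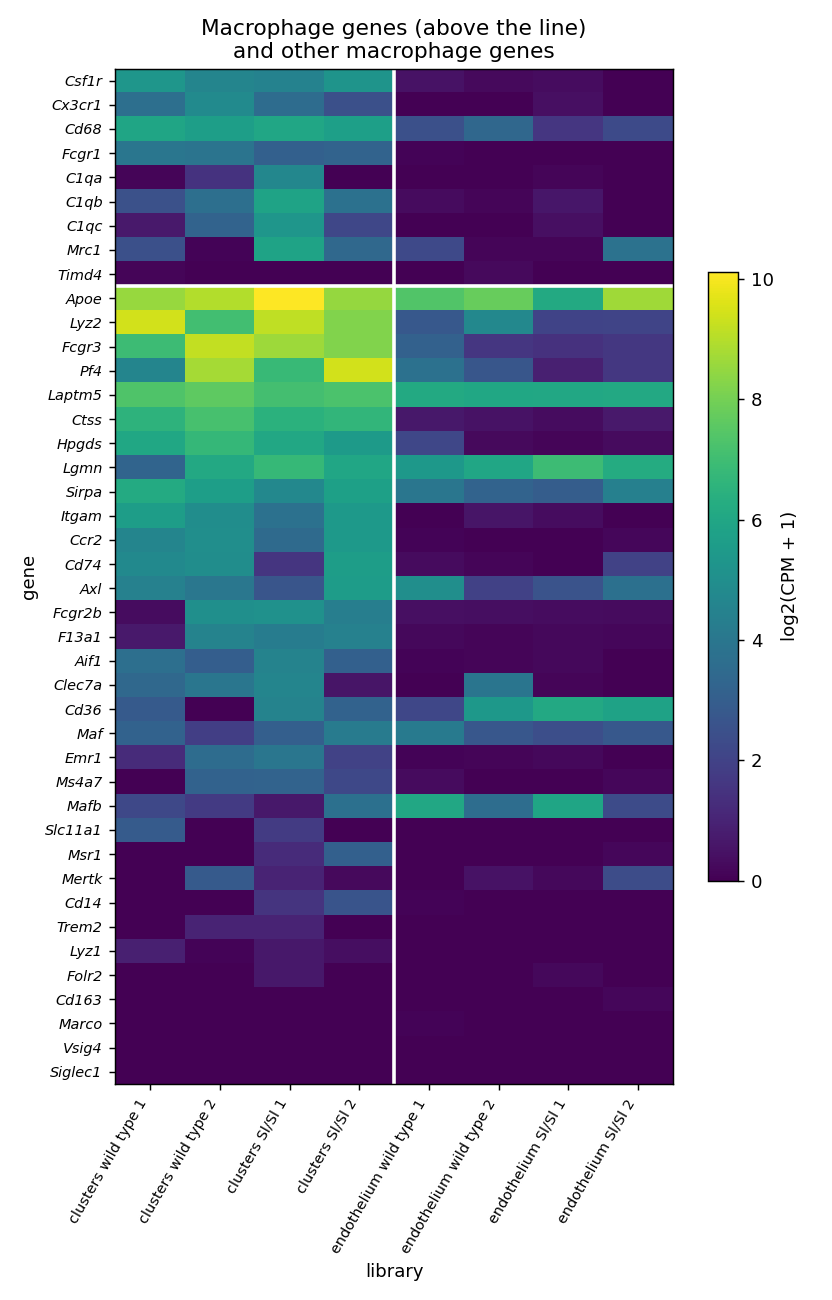
Colour gives log2(CPM + 1) in each library for the 9 macrophage genes, above the horizontal line, and the other macrophage genes below it, with the cluster libraries left of the vertical line. Lyz2, Fcgr3 and Ctss are brighter in every cluster library than in any endothelium library. Apoe and Laptm5 are bright in both sorts, Lgmn overlaps between the sorts, and Timd4, Cd163, Marco, Vsig4 and Siglec1 are dark throughout.

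Genes of early macrophages and of other blood cells lay in the same cluster libraries. Spi1, which encodes PU.1, had 426, 783, 2058 and 842 counts in clusters, the highest again in Sl/Sl replicate 1, and differed from endothelium by 4.71 on the log2 scale (standard error 0.58). Of the 11 myeloid transcription factors 3 were higher and 2 lower in clusters. For this list and those below, the background was 8.12% of all tested genes higher and 8.48% lower in clusters. Of 7 genes of microglia, the brain's macrophages, 3 were higher and 1 lower, among them P2ry12 with 29 counts in wild type replicate 1 and 173 to 286 in the other cluster libraries, and Siglech with 0 counts there and 160 to 291 in the others. In wild type replicate 1 C1qc and Emr1 were at their lowest too, whereas Csf1r and Itgam, which encodes CD11b, were at 448 and 563 counts. C1qa was lowest, at 0 counts, in Sl/Sl replicate 2, where P2ry12 and Siglech had 224 and 160 counts. Of 8 tested granulocyte genes 8 were higher in clusters, and the 12 in the table summed to 776 to 1272 CPM in clusters and 17.4 to 42.5 CPM in endothelium. Of 4 tested mast cell genes 3 were higher, and the 8 in the table summed to 57.1 CPM in Sl/Sl replicate 1 and 1991 CPM in wild type replicate 2. Of 14 stem and progenitor genes 8 were higher and 1 lower in clusters, and of 8 megakaryocyte genes 7 were higher and 1 lower. Of 14 endothelial genes 12 were lower in clusters. Of 6 scavenger endothelial genes, Mrc1 among them, 1 was higher and 2 were lower. Of 6 erythroid and 10 mesenchymal genes 0 were called. Genes near 0 in the endothelium passed the low count filter only through the cluster libraries, so the numbers higher in clusters cannot serve as evidence in themselves. None of these lists had a gene called between the genotypes in clusters, where 0% of all tested genes were called, so this sets no list apart. Several of the macrophage genes are also expressed by monocytes and granulocytes, and the part of those cells in the macrophage values was not tested.

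Within the whole table, the macrophage genes fell into more than 1 pattern. The pattern of a gene was its log2 CPM over the 8 libraries, centred on its mean, and likeness was the root mean square difference of 2 patterns. C1qc had Emr1 as its nearest of 13907 genes and C1qb at rank 2, and from C1qb the nearest member was C1qc at rank 13. The nearest member to C1qa was C1qc, at rank 54. Csf1r and Fcgr1 lay near each other, with Fcgr1 at rank 19 from Csf1r and Csf1r at rank 40 from Fcgr1, and Fcgr1 was at rank 18 from Cx3cr1. Cd68 and Mrc1 lay apart, with their nearest members at ranks 505 and 4312. These ranks describe 8 libraries in which the difference between clusters and endothelium dominates, and genes near 0 in the endothelium have similar patterns whatever they encode. The 10 genes nearest to the mean pattern of the 8 tested genes were Hormad2, Mei4, Uap1l1, Naprt1, Matk, Itgax, Mgl2, Nrg4, Rhof and Mfsd2b, at differences of 0.39 to 0.63 against a median of 2.44 over 13900 genes. With a prior count of 0.5 in place of 2, 3 of these 10 remained among the nearest.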

How the data were processed

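The authors sorted 8 samples of 100 cells at E11.5, 2 in each of the 4 groups, prepared SMARTSEQ2 libraries with 75 bp read pairs, aligned them to mm9 with STAR 2.4.2a, merged lanes and deposited raw counts per gene from featureCounts (Subread 1.4.5). Per the submitters' processing notes DESeq2 1.12.4 was used. The gene annotation, strand setting and handling of reads that match several places are not given in the sources used here, so genes with near-identical copies may share reads. Samples were grouped by their labels.

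Counts were tested with edgeR 4.0.16 (limma 3.58.1, R 4.3.3): TMM factors, filterByExpr on the 4 groups, a quasi-likelihood fit to all 8 samples, and contrasts of genotype in clusters, genotype in endothelium, clusters against endothelium averaged over genotypes, and the interaction. P-values were Benjamini-Hochberg adjusted over 13908 genes, with a threshold of 0.1. Standard errors are the fold change over the root of F. No fold of the fit to all libraries is given where all counts of a group were at or under the floor of 3. Pooled ratios are given for such genes too and then rest on few endothelium counts. Values with a library left out are given also where the remaining library of a group was at or under the floor. Pooled ratios are summed counts over TMM-scaled totals. The log2 CPM of the patterns used a prior count of 2. Promoter windows came from RefSeq, and 7 of 9 genes had one.

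The 9 genes were named in full, from each other list at most 5 by smallest p, with the sort markers, Kitl and the 10 nearest genes. Emr1, Csf1, Cx3cl1, Il34, Dcn, Itgam, Trem2, Folr2, Mertk, Apoe, Laptm5, Lgmn and the genes at 0 were chosen after their values were seen. Some genes of the lists are counted but not reported here by name. The genes and lists were chosen with earlier results of these data known. Alternatives were DESeq2 1.42.0, other samples, scaling, filters, threshold and prior count, a replicate block, and leaving out each library. The fit was tested on simulated counts.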

Additional observations from a re-analysis of the deposited data

How the results depend on the processing

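The depth limits what could be seen in the endothelium, where most macrophage genes were at or under 3 counts, and 2 libraries a group limit the tests of genotype. The number of macrophage genes called was 0 for genotype in clusters, genotype in endothelium and the interaction under DESeq2 on all 8 samples, RLE factors, no filter, at least 10 counts in every sample, a threshold of 0.05, the block, and leaving out each library (where a lone library is assumed to vary like the other groups). For genotype in each cell type it was also 0 with DESeq2 or edgeR on the 4 samples of that type, which hold no interaction. Between clusters and endothelium 6 genes were called, and 5 to 7 with a library left out. The number fell to 1 with at least 10 counts in every sample, where only Cd68 was left to test, and to 2, Csf1r and Cd68, with the Sl/Sl samples alone. With the wild type samples alone it was 4, Csf1r, Cx3cr1, Cd68 and Fcgr1, so C1qb and C1qc were called in neither genotype alone. The number was 7 with DESeq2 or with no filter, which added C1qa.

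Directions turned for genotype in clusters in Csf1r (log2 differences of -0.52 to 0.33 with a library left out), Cd68 (-0.12 to 0.19), C1qa (-6.46 to 6.98) and C1qc (-0.37 to 5.10). They turned for Mrc1 between clusters and endothelium (-1.06 to 4.36), in the endothelium (-4.31 to 5.89) and in the interaction (-2.04 to 8.19). Where the remaining library of a group had at most 1 count, as for C1qa and Mrc1, the size of the value depends on the prior count. The cause of the turns was not tested. Over all genes, the number called for genotype in clusters was 0 with edgeR, 175 with DESeq2, 253 with no filter, 9 with at least 10 counts in every sample, and 6 to 76 on leaving out 1 library. In endothelium it was 0, 179 with DESeq2 and 65 with no filter, and for the interaction 0, 175 and 179. Between clusters and endothelium 2310 genes became 3616 with DESeq2 and 1488 at a threshold of 0.05.

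Replicate numbers are not said to mark shared embryos or sorts. The deviations of replicate 1 from the group mean correlated at 0.157 between wild type and Sl/Sl clusters and at -0.00248 in the endothelium. With the replicate number as a block the log2 difference of Csf1r in clusters was 0.069, that of C1qa 1.63, of C1qc 1.03 and of C1qb 1.39, that of Mrc1 was 4.27 in the endothelium, 0.30 between clusters and endothelium and 0.25 in the interaction, 6 macrophage genes were still called between clusters and endothelium, and 8 genes in all were called for genotype in clusters.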
